A study of Zea mays with 9 samples.

Results

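Starch synthases join glucose from ADP-glucose to growing starch chains. In the endosperm of maize (Zea mays), which stores the starch of the kernel, the granule-bound enzyme encoded by wx1 makes amylose, while soluble enzymes lengthen the chains of amylopectin. The 5 genes described here are the granule-bound forms wx1 and GBSSIIa and the soluble forms ss1, su2 (zSSIIa, starch synthase IIa) and zSSIIb. They were taken by gene symbol or synonym from the annotation of an Affymetrix array, where several short probes for a transcript form 1 probe set and give 1 signal. They are 5 of 1108 genes with a symbol there, and each was named for 1 of the 17621 probe sets left after 113 array controls were set aside. Those 17621 still included 66 probe sets for reporter genes.

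Endosperm RNA was measured 15 days after pollination in 3 field-grown inbred lines, with 3 arrays per line. The ae wx line is named for amylose extender, a starch branching enzyme locus, together with waxy, the wx1 locus. The name of sh1 refers to shrunken1, which encodes a sucrose synthase, and B73 is the line of the maize reference genome. No alleles are given for any line, nor is the relation of ae wx or sh1 to B73, and what the named loci do cannot be told apart from other differences between the lines. The labels call the replicates biological without saying whether they came from separate ears, and the p-values measure the spread between these arrays.

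The tissue label was checked against marker genes. On all 9 arrays the 9 endosperm markers, among them zein storage protein genes, were above 23 control probe sets without a maize target. Their summed signal was 92775 to 98013 in ae wx, 94660.2 to 97567 in sh1 and 113634 to 115050 in B73. Markers of other kernel parts gave signals above 0, which alone does not show presence. All 4 basal transfer layer markers were above those 23 controls on each ae wx and sh1 array, and 2 or 3 in B73. Of 3 green tissue markers, 0 or 1 were above them on the ae wx and sh1 arrays, and 1 or 2 in B73. The marker of the embryo-surrounding region was above them on ae wx replicate 1 alone. The 4 basal transfer layer markers summed to 4374, 1623 and 1549 in ae wx replicates 1, 2 and 3. In the same order they summed to 3644, 2203 and 1955 in sh1, and they summed to 913 to 929.9 in B73. The marker mn1 did not follow these sums, at 202 to 257 in ae wx, 207 to 211 in sh1 and 219 to 236 in B73. The 5 embryo and aleurone markers summed to 7521 to 8092 in ae wx, 8981 to 10619.5 in sh1 and 9934 to 14059.6 in B73, and the 3 green tissue markers to 305 to 324, 284 to 338 and 453 to 1017. Of the green tissue markers, rbcs1 overlapped between all lines, at 92.9 to 102.5 in ae wx, 91.7 to 114.9 in sh1 and 101.2 to 112.4 in B73. The single marker of the embryo-surrounding region read 249, 64.9 and 69.1 in ae wx replicates 1, 2 and 3. It read 61.9 to 84.95 in sh1 and 59.6 to 84.3 in B73. Median signal per array was 244 to 254 in ae wx, 251 to 256 in sh1 and 241 to 245 in B73, and sh1 replicates 2 and 3 were the most alike pair of arrays (r = 0.998 across probe sets). Control probe sets for Bacillus transcripts, 36 in number, were 1.48-fold lower in ae wx than in B73 and 1.81-fold lower in sh1 than in B73. The sources used here do not say whether these transcripts were added in equal amounts.

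The 5 genes did not share a pattern across the lines. For wx1 the order was B73, then sh1, then ae wx, each step passing the test. GBSSIIa and ss1 were highest in ae wx, su2 was highest in sh1, and zSSIIb was lowest in B73. In ae wx against B73, 3 genes were higher, 1 was lower and 1 was not called, where a call is a limma adjusted p under 0.05. One of the higher genes, GBSSIIa, passed the filter on dim signals through its ae wx arrays alone, so these counts, the medians and the tally of arrays that did not overlap are descriptions. In sh1 against B73, 2 were higher, 2 were lower and 1 was not called, and the counts were the same in ae wx against sh1. These counts stand against many differences between the lines: 53.4% of the 12414 probe sets tested were called in ae wx against B73, 55.9% in sh1 against B73 and 36.6% in ae wx against sh1. By direction, 29.0% were higher and 24.3% lower in ae wx against B73, 30.4% and 25.4% in sh1 against B73, and 17.8% and 18.8% in ae wx against sh1. The median log2 fold change of the 5 genes was 0.42 in ae wx against B73, against 0.04 over all probe sets tested, and 0.21 against 0.04 in sh1 against B73. With ae wx against sh1 it was 0.0025, against 0.0036 over all probe sets tested. The arrays of the lines compared did not overlap for 4 of the 5 genes in each comparison, and the same held for 60.1%, 60.9% and 62.6% of all probe sets tested, with ae wx against B73 first, sh1 against B73 second and ae wx against sh1 last. The comparisons with B73 share its 3 arrays.

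**Figure D1:**
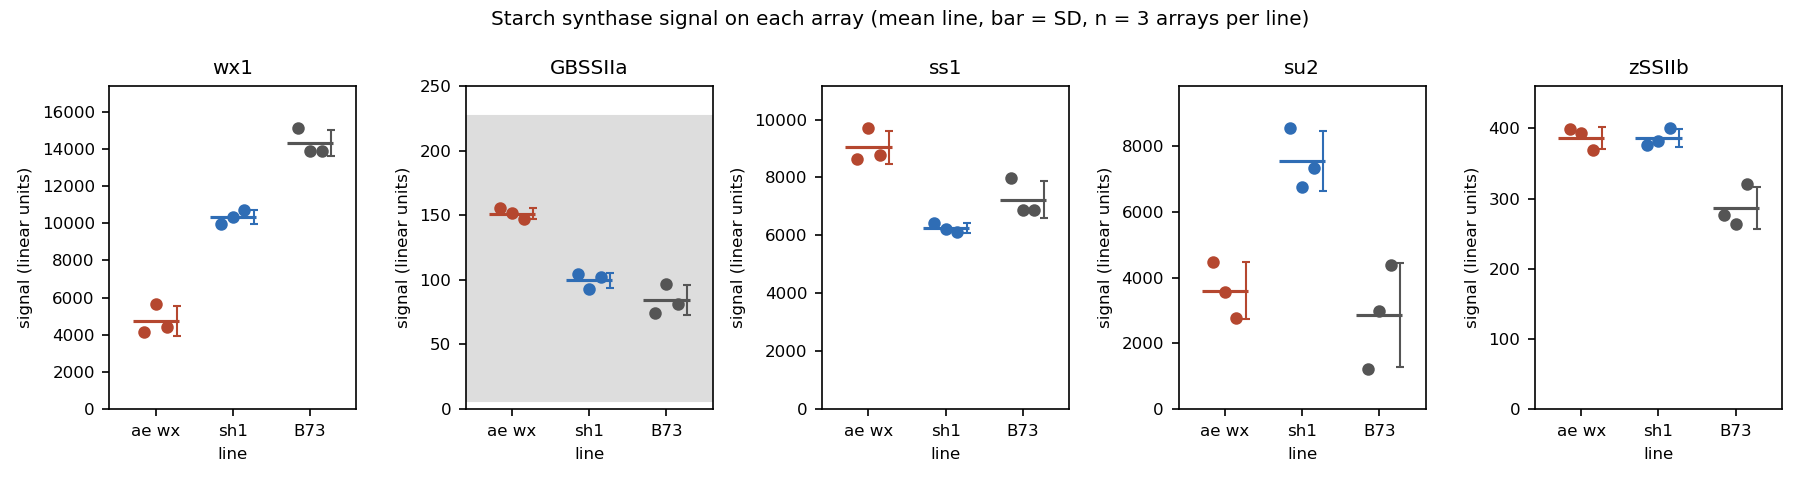
Signal of the 5 starch synthase genes (linear units) on each of 9 arrays by line, with the mean (horizontal line) and SD (bar) of 3 arrays. The grey band in the GBSSIIa panel is the range of 23 control probe sets without a maize target over all arrays. The 3 ae wx arrays lie lowest for wx1 and highest for ss1, and the B73 arrays of su2 are spread from 1225 to 4371.

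The granule-bound form wx1 (gene model GRMZM2G024993) encodes the enzyme of amylose synthesis in the endosperm, and recessive waxy alleles are known for starch that lacks amylose. Its signal was 4156, 5666 and 4392 in ae wx, 9940.1, 10349 and 10706 in sh1, and 15122, 13907 and 13913 in B73. No array of one line overlapped those of another, and the ae wx arrays were the lowest. The means were 4738 ± 812 in ae wx, 10332 ± 383 in sh1 and 14314 ± 700.1 in B73 (SD, n = 3 each). The signal was 3.04-fold lower in ae wx than in B73 (log2 fold change −1.60 ± 0.10 SE, limma adjusted p = 1.14e-06). That log2 fold change was −1.04 when arrays were scaled on the Bacillus controls (limma adjusted p = 6.42e-05), or −1.61 relative to the median of all probe sets. Fold changes here and below are on the log2(signal + 16) scale, which understates changes of dim genes. Fewer cells of a type or less RNA per cell cannot be told apart in them. Nor can a sequence difference between the lines under the probes, which was not tested. Against sh1, the ae wx line was lower as well (log2 fold change −1.13 ± 0.10 SE, adjusted p = 1.96e-05), with a 95% interval of −1.37 to −0.90. In sh1 against B73, wx1 was 1.38-fold lower (−0.47 ± 0.10 SE, log2, adjusted p = 0.00357). That last direction depended on scaling, since it was +0.39 when arrays were scaled on the Bacillus controls, a setting that moved the median of all probe sets in this comparison to 0.86. Relative to that median wx1 stood at −0.47. The spread of wx1 between ae wx arrays (SD 0.24, log2) was above the median of all probe sets in this line (0.07), and only 2.64% of probe sets there had a larger SD.

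GBSSIIa (gene model GRMZM2G008263) is the other granule-bound form. In rice and wheat, granule-bound starch synthase II is known from leaf and pericarp, where starch is transient. Its signal was 155, 152 and 147 in ae wx, 104, 93.3 and 102 in sh1, and 74.6, 97.1 and 81.5 in B73. The ae wx arrays lay above all others, while those of sh1 and B73 overlapped. These signals are near the level of probe sets that have no maize target. Of 23 such controls, 22 or 23 were dimmer than GBSSIIa on the ae wx arrays, 22 on each sh1 array and 20 or 21 on the B73 arrays. Of 66 probe sets for reporter genes, 62 or 63 were dimmer in ae wx, 57 to 60 in sh1 and 55 to 58 in B73.

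In ae wx, GBSSIIa stood 0.74 ± 0.10 (SE, log2) above B73 (limma adjusted p = 0.000146) and 0.53 ± 0.10 above sh1 (adjusted p = 0.00185). Scaled on the Bacillus controls, the difference from sh1 was 0.28 and was not called (adjusted p = 0.136). The probe set passed the filter on dim signals through its 3 ae wx arrays alone, so its presence among the genes tested already required a high value in that line. In sh1 against B73 it was not called (0.21 ± 0.10, adjusted p = 0.0856, 95% interval −0.00304 to 0.43), and it was called without B73 replicate 2 (0.30, adjusted p = 0.0187). Scaled on the Bacillus controls, that difference was 0.93 and was called (limma adjusted p = 7.06e-05). Relative to the median of all probe sets it was then 0.08.

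Both granule-bound genes were read on the same arrays, so the difference of their log2 values was formed within each array. It was 4.82 ± 0.24 in ae wx, 6.48 ± 0.10 in sh1 and 7.16 ± 0.22 in B73 (SD, n = 3 each). It was lower by 2.35 in ae wx than in B73, by 1.67 in ae wx than in sh1 and by 0.68 in sh1 than in B73. An exact two-sided permutation test gave p = 0.1 for each, the smallest that 3 against 3 arrays allow, and 0.12 after adjustment over the 6 ratios tested. GBSSIIa was at or above the filter's floor on 3 ae wx arrays and 0 arrays of sh1 or B73, and near control level in those lines, so the sizes of these differences are uncertain. They compare lines and give no transcript level.

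Among the soluble forms, ss1 (gene model GRMZM2G129451) encodes starch synthase I, which extends the short outer chains of amylopectin. Its signal was 8639.6 in replicate 1, 9704 in replicate 2 and 8785 in replicate 3 of ae wx, 6427, 6209 and 6102 in sh1, and 7985, 6867 and 6865 in B73. The 3 lines did not overlap, with ae wx highest and sh1 lowest. The means were 9043 ± 577 in ae wx, 6246 ± 166 in sh1 and 7239 ± 646 in B73 (SD, n = 3 each). The signal was 1.25-fold higher in ae wx than in B73 (log2 fold change 0.32 ± 0.08 SE, limma adjusted p = 0.00521) and 1.45-fold higher than in sh1 (0.53 ± 0.08, adjusted p = 0.000407). The difference from sh1 was 0.24 and was not called when arrays were scaled on the Bacillus controls (adjusted p = 0.127).

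The lower ss1 signal of sh1 against B73 was small, 1.16-fold (−0.21 ± 0.08 SE, log2, limma adjusted p = 0.0374, 95% interval −0.38 to −0.04). It was not called without B73 replicate 1 (−0.14, adjusted p = 0.0775), without ae wx replicate 1 or 3, or without any 1 of the sh1 arrays, with adjusted p between 0.0507 and 0.109. Nor was it called with the replicate number as a block (adjusted p = 0.057). Scaled on the Bacillus controls, the difference was +0.65, or −0.21 relative to the median of all probe sets.

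The gene su2 (gene model GRMZM2G348551) encodes starch synthase IIa, which makes chains of intermediate length, and sugary2 mutants are known for altered amylopectin. Its signal was 4492, 3552 and 2771 in ae wx, 8552, 6767 and 7341 in sh1, and 1225, 2973 and 4371 in B73. All sh1 arrays were above all arrays of the other lines, while ae wx and B73 overlapped. The means were 3605 ± 862 in ae wx, 7553 ± 911 in sh1 and 2856 ± 1576 in B73 (SD, n = 3 each). The signal was 2.97-fold higher in sh1 than in B73 (log2 fold change 1.57 ± 0.38 SE, limma adjusted p = 0.00578). The 95% interval of that log2 difference was 0.73 to 2.42, and without single arrays it ran from 1.06, where B73 replicate 1 was left out, to 1.97, where B73 replicate 3 was left out.

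Between ae wx and sh1, su2 was 2.12-fold lower in ae wx (log2 fold change −1.08 ± 0.38 SE, limma adjusted p = 0.0475). This call was at the threshold and ended without B73 replicate 2 or any 1 of the ae wx or sh1 arrays (log2 fold changes −1.26 to −0.91, adjusted p between 0.0594 and 0.152). It also ended with the replicate number as a block (adjusted p = 0.0744). The B73 arrays enter this test through the pooled spread. At the same log2 fold change, the adjusted p was 0.000793 with only these 2 lines fitted, 0.00119 with array weights per line, 0.0024 without B73 replicate 1 and 0.0146 without B73 replicate 3. Against B73, su2 in ae wx was not called (0.49 ± 0.38, adjusted p = 0.303, 95% interval −0.36 to 1.33). That difference was −0.03 without B73 replicate 1 (adjusted p = 0.924) and 0.88 without B73 replicate 3 (adjusted p = 0.0419). Scaled on the Bacillus controls, it was 1.05 and was called (limma adjusted p = 0.0254). Relative to the median of all probe sets it was then 0.47.

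The spread of su2 between B73 arrays was 3.57-fold from the lowest to the highest, an SD of 0.93 on the log2 scale against a median of 0.18 over all probe sets tested. In B73, 0.612% of probe sets had a larger SD than su2, and in ae wx 0.548% did. The other 4 genes were less variable in B73, with SDs between 0.07 for wx1 and 0.16 for GBSSIIa. Other readouts differed between the same B73 arrays. The debranching enzyme gene zpu1 read 3137, 2868 and 1412 in B73 replicates 1, 2 and 3, and the globulin gene glb1, an embryo and aleurone marker, read 3183, 3111 and 1745. Within the 5 embryo and aleurone markers, 4 were above all of 23 controls without a maize target on B73 replicate 1. All 5 were on replicate 2 and 2 on replicate 3, and 4 on each ae wx and sh1 array. That count depends on the brightest such control, which read 119.6, 109 and 227 on B73 replicates 1, 2 and 3. On the same arrays the markers rab17 and vp1 read 448 and 211, 638 and 246, and 173 and 153. The summed signal of the 5 markers was 12405, 14059.6 and 9934 in B73, in the same order. The log2 ratio of 3′ over 5′ signal of the actin control, a sign of RNA quality, was −0.08, 0.06 and 0.54 in the same order, and that of cyclophilin was 0.54, 0.44 and 0.23. In ae wx the actin ratio was 0.42, 0.62 and 0.68, and in sh1 it was 0.75, 0.56 and 0.49. The cyclophilin ratio was 0.01 to 0.10 in ae wx and −0.03 to 0.05 in sh1, below all B73 arrays. The GAPDH ratio was −0.07 to 0.07 in ae wx, 0.44 to 0.50 in sh1 and −0.16 to −0.0016 in B73, so that sh1, the line with the highest su2 signal, stood apart. The EF1a ratio was 1.38 to 1.57 in ae wx, 1.24 to 1.33 in sh1 and 1.07 to 1.21 in B73. Within ae wx, replicate 1 had the highest su2 signal (4492) and the highest transfer layer sum (4374). The same held for sh1 replicate 1 (8552 and 3644), while the B73 sums were 913 to 929.9. The part of RNA quality and of other kernel tissues in the su2 differences was not tested.

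**Figure D2:**
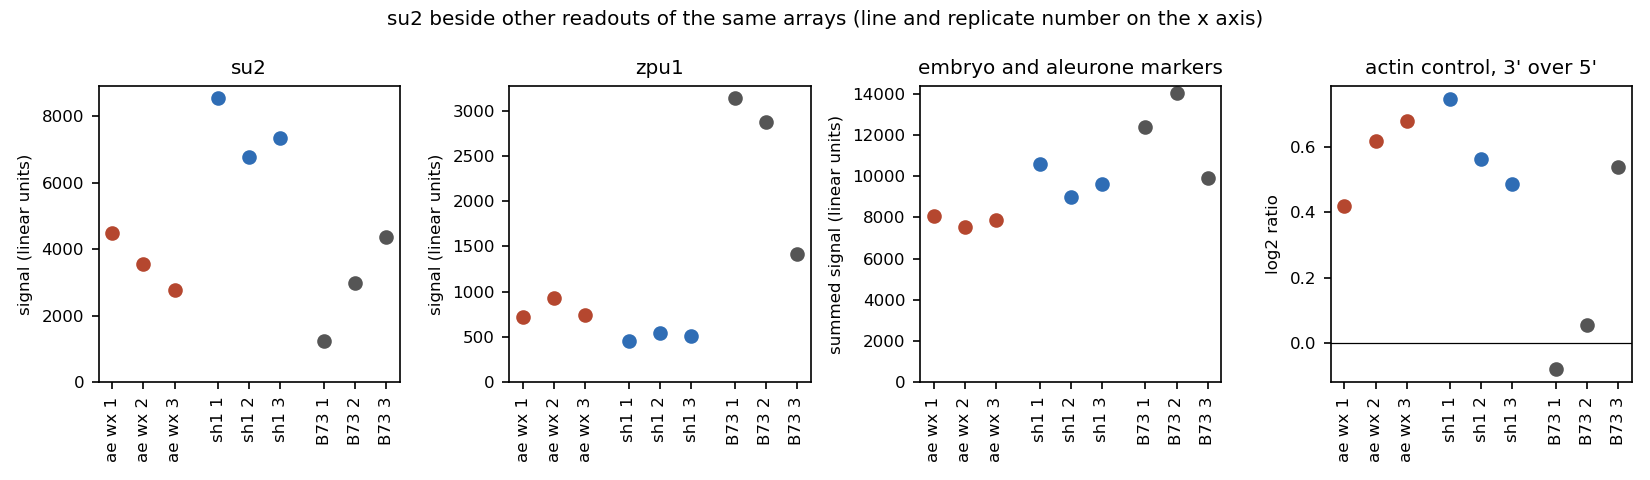
Signal of su2, signal of zpu1, summed signal of 5 embryo and aleurone markers (all linear units) and log2 ratio of 3′ over 5′ actin control signal, for each array by line and replicate number. The B73 array with the highest su2 signal, replicate 3 at 4371, has the lowest B73 signal of zpu1 (1412) and the highest B73 actin ratio (0.54). Other control ratios are not plotted. On this array cyclophilin was the lowest of B73 (0.23), GAPDH lay between the other B73 arrays (−0.14) and EF1a was the highest of B73 (1.21).

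The gene zSSIIb encodes a starch synthase IIb, known in cereals mainly from leaves. Its signal was 399, 393 and 369 in ae wx, 376, 382 and 400.4 in sh1, and 276, 263 and 320.2 in B73. All arrays of ae wx and sh1 were above all B73 arrays, and those of ae wx and sh1 overlapped. The means were 387 ± 15.8 in ae wx, 386 ± 12.8 in sh1 and 286 ± 29.9 in B73 (SD, n = 3 each). The signal was higher than in B73 in ae wx (log2 fold change 0.42 ± 0.09 SE, limma adjusted p = 0.00313) and in sh1 (0.42 ± 0.09, adjusted p = 0.00306). Between ae wx and sh1 the log2 difference was 0.0025 ± 0.09 (adjusted p = 0.985), with a 95% interval of −0.20 to 0.20. For the values as deposited, that interval bounds a difference in either direction without showing that the lines were equal. Scaled on the Bacillus controls, the difference was −0.28, outside that interval, and was not called (limma adjusted p = 0.083). Relative to the median of all probe sets it was then −0.00065.

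The soluble IIa and IIb forms were set against each other within each array. The log2 signal of su2 minus that of zSSIIb was 3.14 ± 0.29 in ae wx, 4.23 ± 0.19 in sh1 and 3.07 ± 0.86 in B73 (SD, n = 3 each). It was higher by 1.16 in sh1 than in B73 and lower by 1.09 in ae wx than in sh1, with exact permutation p = 0.1 for each, the smallest possible, and 0.12 after adjustment over the 6 ratios. Between ae wx and B73 the difference was 0.07 (exact permutation p = 0.9), and without B73 replicate 1 it was −0.42.

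The other starch genes found by name were ADP-glucose pyrophosphorylase subunits, the ADP-glucose transporter, branching and debranching enzymes, and the starch synthase gene du1. Only 1452 of 17621 probe sets had 1 symbol, so further starch genes may be on the array without a name. Of the 11 genes found by name, 8 passed the filter on dim signals. Of these 8, 6 were higher and 1 was lower in ae wx against B73, where 29.0% and 24.3% of all probe sets tested were higher and lower. The branching enzyme I gene sbe1 read 8562, 9288 and 8983 in ae wx against 6074, 4720 and 4645 in B73 (log2 fold change 0.81 ± 0.11 SE, limma adjusted p = 0.000188). The transporter gene bt1 (0.50 ± 0.10, log2), the branching enzyme IIb gene ae1 (0.28 ± 0.06), the pyrophosphorylase genes bt2 (0.27 ± 0.06), sh2 (0.22 ± 0.04) and agp2 (0.20 ± 0.07) were higher too. The dimmer sh2 probe set was not called (−0.05 ± 0.10, adjusted p = 0.715). The lower gene was zpu1, a pullulanase-type debranching enzyme (−1.54 ± 0.26), and the isoamylase-type gene iso2 was not called (−0.19 ± 0.13). The median over the 8 genes was 0.24, against 0.04 over all probe sets tested.

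In sh1 against B73, none of the 8 other genes was higher and 2 were lower, against 30.4% and 25.4% of all probe sets tested. The lower genes were zpu1 (log2 fold change −2.18 ± 0.26 SE, limma adjusted p = 7.51e-05) and iso2 (−0.45 ± 0.13, adjusted p = 0.0139). Of the 8, 1 gene was called without sh1 replicate 2 and 1 without sh1 replicate 3. Scaled on the Bacillus controls, 7 of the 8 were higher and 1 was lower. The gene sh2 read differently by its other probe set, at −0.39 in sh1 against B73 (limma adjusted p = 0.0074) where the brighter one gave 0.02. Between ae wx and sh1, 5 of the 8 were higher in ae wx and none was lower, against 17.8% and 18.8% of all probe sets tested. All 8 were higher with only these 2 lines fitted or with array weights per line, and 1 was with Bacillus scaling. The median was 0.02 in sh1 against B73 and 0.27 in ae wx against sh1.

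The soluble starch synthase III gene du1, at 59.2 to 70.05 in ae wx, 36.1 to 44.7 in sh1 and 39.7 to 50.3 in B73, did not pass the filter and was left out of the counts above. The same held for the isoamylase-type gene iso3, at 74.4 to 83.6 in ae wx, 51.1 to 64.6 in sh1 and 62.6 to 68.8 in B73, and for the pyrophosphorylase gene agpsl1, at 47.9 to 58.9 in ae wx, 47.7 to 55 in sh1 and 64.7 to 103 in B73. Fitted with no filter, du1 was higher in ae wx than in B73 (log2 fold change 0.43, limma adjusted p = 0.004) and than in sh1 (0.56, adjusted p = 0.00125), and was not called in sh1 against B73 (−0.13, adjusted p = 0.293). In that fit iso3 was higher in ae wx than in B73 (0.24, adjusted p = 0.043) and than in sh1 (0.38, adjusted p = 0.00613). The gene agpsl1 was lower than in B73 in ae wx (−0.54, adjusted p = 0.00788) and in sh1 (−0.58, adjusted p = 0.00467).

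**Figure D3:**
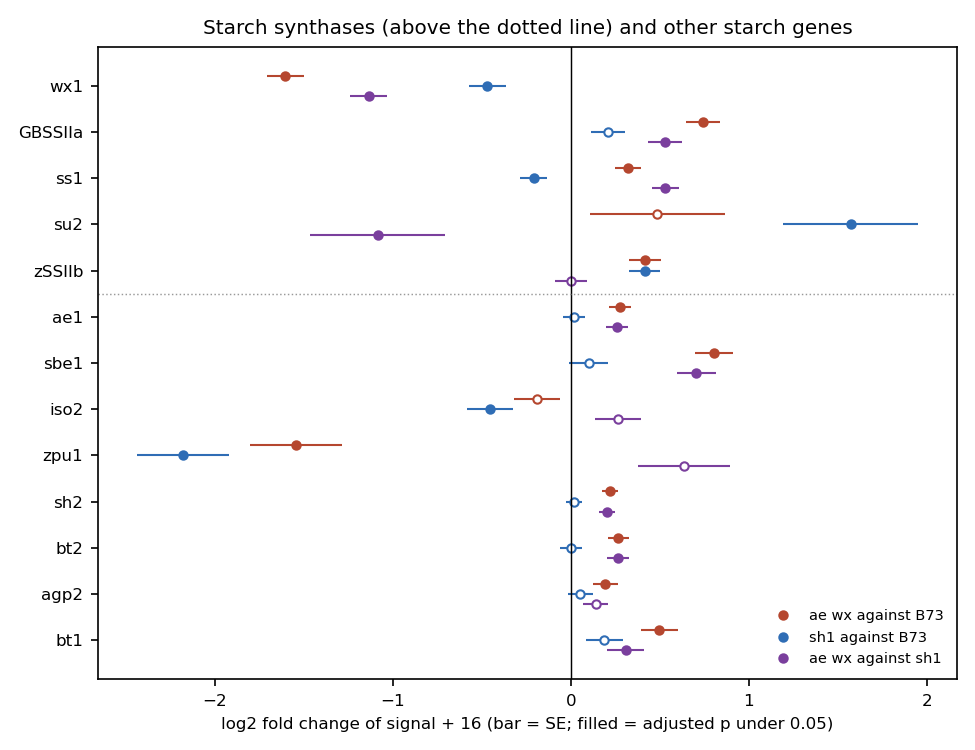
Log2 fold change of signal + 16 with its SE for the 5 starch synthases (above the dotted line) and 8 other starch genes in the 3 comparisons of lines, with filled points at a limma adjusted p under 0.05. With ae wx against B73, wx1 (−1.60) and zpu1 (−1.54) lie far to the left of the other genes, and in sh1 against B73 su2 (1.57) lies farthest to the right.

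To place each gene's profile, the 744 other named genes that passed the filter were ranked by the root mean square difference of log2(signal + 16), centred on the mean of 9 arrays. Lines and arrays are shared by all genes, so likeness is a description. Nearest to wx1 were HDT1, a histone deacetylase gene (0.20), the homeobox gene knox7 (0.27) and the alpha tubulin gene TUA1 (0.31), against a median of 0.75 over all genes ranked. HDT1 differed by −1.38 in ae wx against B73 and −0.54 in sh1 against B73, on the log2 scale. Nearest to zSSIIb were the enolase gene eno1 (0.04), cdc2 of the cell cycle (0.06) and the translation factor gene eif5a (0.07), against a median of 0.32.

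The genes nearest to GBSSIIa were cc7 (0.08), a gene annotated as AGP2 (0.09), which is another locus than the agp2 above, and sfp1 (0.11), with a median of 0.40 over all genes ranked. For ss1 they were the histone deacetylase gene hda101 (0.10), hdr10 (0.11) and the response regulator gene RR8 (0.11), with a median of 0.35. No gene was as near to su2: the smallest distances were 0.39 for prpl35-1, a plastid ribosomal protein gene, 0.42 for the beta tubulin gene TUBB2 and 0.43 for zfp30, with a median of 0.83. In the sh1 line, prpl35-1 and TUBB2 stood 1.92 and 1.91 above B73 on the log2 scale. On the B73 arrays prpl35-1 read 168, 218 and 257, a narrower range than that of su2 with the same order of arrays.

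**Figure D4:**
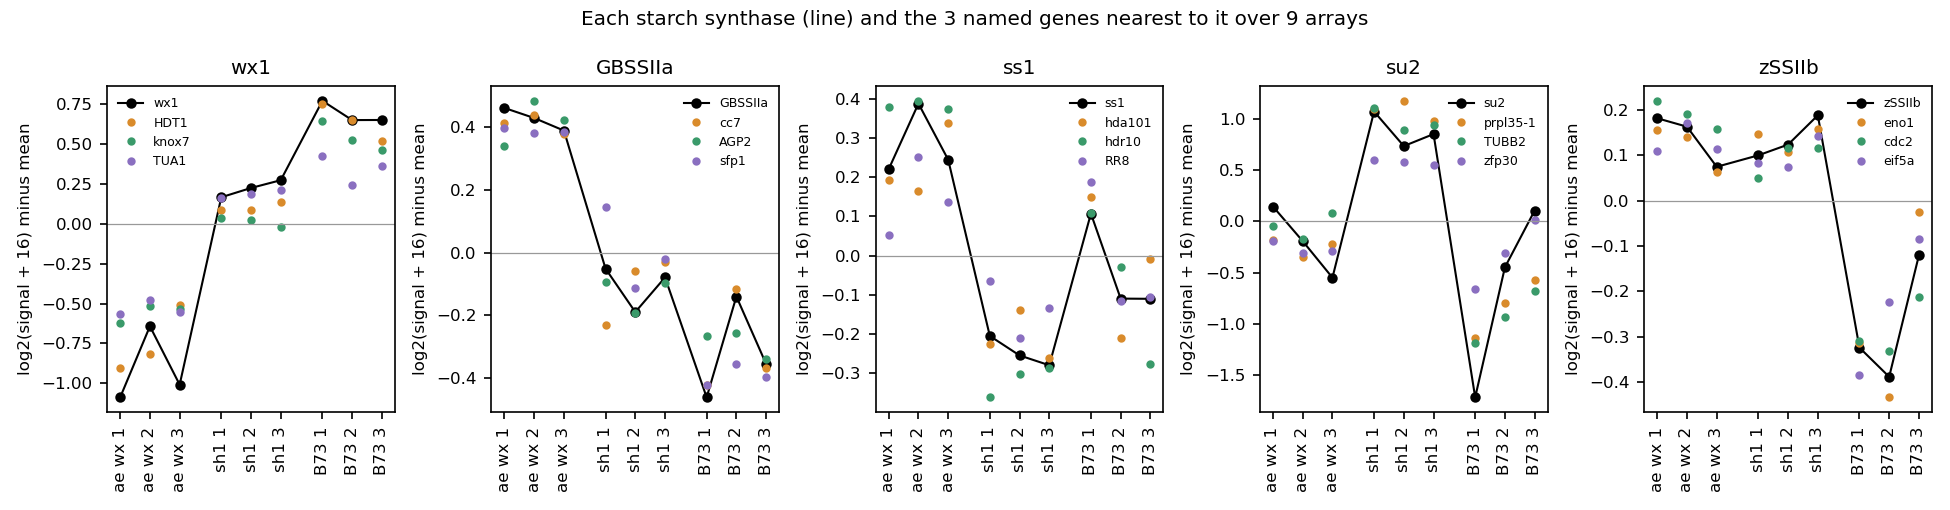
Centred log2(signal + 16) of each starch synthase (black line) and of the 3 named genes nearest to it (points) on 9 arrays, by line and replicate number. The wx1 profile is lowest in ae wx, that of su2 is highest in sh1 with its lowest point at B73 replicate 1, and that of zSSIIb is lowest in B73.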

How the data were processed

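Signal intensity per probe set was deposited by the authors as 1 linear value per array. Per the labels' protocols, total RNA was biotin labelled for Affymetrix arrays, and GCOS 1.4 appears without a role in the submitters' processing notes. The summary algorithm, scaling target and detection calls were not given in the sources used here, and precision is limited by the array number. Values were used as deposited, without further scaling. Genes were found by platform symbol or by a synonym of the same Entrez identifier in a RefSeq table (assembly Zm-B73-REFERENCE-NAM-5.0), from which only names were taken. The platform annotation gave 1 symbol for 1452 of 17621 probe sets, and 113 control probe sets were left out. The 66 probe sets for reporter genes were not left out, and any that passed the filter were tested.

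Probe sets at or above 20% of their array's 2% trimmed mean in at least 3 of 9 arrays were kept (12414, with 5207 removed). The model was limma 3.58.1 in R 4.3.3 on log2(signal + 16), with 1 mean per line over all arrays, an intensity trend and two-sided p-values adjusted by Benjamini-Hochberg over all kept probe sets. The code was tested on simulated data. The brightest probe set stood for a gene with several. All annotated probe sets of the 5 genes are named, and all measured genes of the starch list may be. Probe sets of these genes without a symbol would not have been found. Where a listed name also matched a gene of another function at another locus, that other gene was left out of the lists. Members and lists were chosen with earlier results of these data known. Same-numbered arrays of different lines deviated together at r = −0.23 to 0.14, so replicate numbers were not taken as pairs. For likeness, the 3 nearest named genes are given. Alternatives changed the pseudocount (1 or 64), filter, normalization, lines fitted, replicate block and array weights, averaged sh1 replicates 2 and 3, left out each array, or scaled on the Bacillus controls. Plots used Python 3.11.15 and matplotlib 3.10.9.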

Additional observations from a re-analysis of the deposited data

How the results depend on the processing

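Across the alternatives other than scaling on Bacillus controls, for the 15 differences of the 5 genes between lines, 243 of 270 values kept their direction and side of the threshold, 20 lost the call, 2 gained one and 5 changed sign. Direction could not change with no filter, only the compared lines fitted, a replicate block or array weights per line. The same held where an array of the third line was left out. These settings leave the log2 fold change as it was. The lost calls were those of ss1 in sh1 against B73 and of su2 in ae wx against sh1. The sign changes were su2 in ae wx against B73 (−0.0277 without B73 replicate 1 to 0.883 without B73 replicate 3) and zSSIIb in ae wx against sh1, which ran from −0.0184 to 0.0351 without single arrays. For the log2 ratio of su2 over zSSIIb in ae wx against B73 the range without single arrays was −0.422 to 0.387. The numbers of other starch genes called without single arrays were 1 to 3 in sh1 against B73 and 4 to 6 in ae wx against sh1. With sh1 replicates 2 and 3 averaged, 1 such gene was called in sh1 against B73. In ae wx against sh1, 8 were called with only the compared lines fitted and 8 with array weights per line. With a replicate block, 3 starch synthases were called in sh1 against B73 and 3 in ae wx against sh1, 1 fewer each, and 4 in ae wx against B73. Scaling on the Bacillus controls was added after their signals were seen. It moved the median of all probe sets to 0.57 in ae wx against B73, 0.86 in sh1 against B73, and −0.28 in ae wx against sh1. The share of calls that were higher became 91.6%, 95.2% and 15.6% in that order, against 54.4%, 54.5% and 48.7% as reported. In sh1 against B73 it gave wx1 at 0.386, ss1 at 0.646, 8 other starch genes called and 10974 probe sets called. All 5 starch synthases were called higher there, among them GBSSIIa, which was not called with the values as deposited. In ae wx against B73 this scaling called 5 starch synthases, among them su2, which was not called with the values as deposited. In ae wx against sh1 it gave zSSIIb at −0.277, with 2 starch synthases and 1 other starch gene called, and GBSSIIa and ss1 no longer called. The cause was not tested. Dim signal is a limit for GBSSIIa, and for du1, iso3 and agpsl1. With no filter, 10 other starch genes were called in ae wx against B73, 3 in sh1 against B73 and 7 in ae wx against sh1.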
